A study of Mus musculus with 32 samples.

Results

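The retinas described here came from 7 columns of the expression table taken as ground controls. These columns carry the mouse numbers M31, M32, M33, M34, M35, M36 and M40. The paper counts more ground control RNA libraries than these 7. They are 7 of the 16 RNA samples and of the 32 samples of all kinds in the series, which compared mice kept on the ground with mice flown on the International Space Station. All 7 columns were chosen by their place in the control group, not by any measured value, and the flown mice are left out. The number M40 stands in no title of an RNA sample, where M37 stands instead, and its place among the controls rests on the study's own list of libraries, so the membership of M40 is less certain than that of the other 6. The controls were female C57 BL/6J mice, 21 weeks old by the label, kept on the ground in the same type of animal habitat as the flown mice and inside a chamber that simulated the spacecraft environment. Their carcasses were frozen and later thawed, the eyes were opened and the cornea and lens removed, and each library holds the total RNA of 1 retina of 1 mouse after depletion of ribosomal RNA. The labels name no left or right eye that could be tied to a column, since the sources give different mouse numbers for several libraries, so the eyes were not compared.

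The retina turns light into nerve signals. In a rod photoreceptor, light sets off a cascade in which the G protein transducin switches on a phosphodiesterase that breaks down cyclic GMP and closes the channels of the outer segment. Cones do the same with their own set of proteins in bright light. Bipolar, horizontal and amacrine cells process the signal, ganglion cells send it to the brain along the optic nerve, Müller glia span the tissue, and the pigment epithelium behind the rods renews the visual pigment. Mouse retina is dominated by rods. The levels below are FPKM, fragments scaled to the length of the transcript and to the mapped fragments of the library, so that genes of different length can be set side by side. They are given as the lowest, the median and the highest of the 7 retinas, or retina by retina.

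The labelled tissue was met by its defining markers in all 7 libraries. Gnat1, the α subunit of rod transducin, was at 8269, 9214, 11268, 10602, 12885, 10711 and 8733 FPKM in M31, M32, M33, M34, M35, M36 and M40. Sag, the rod arrestin that ends the light signal, was at 1103, 1657, 1685, 1634, 2020, 1484 and 2113 FPKM in the same order. Both genes were lowest in M31, and the highest retina was M35 for Gnat1 and M40 for Sag. The 4 genes of the Y chromosome that were looked up were listed at 0 in all 7 libraries, and the paper states that the mice were female.

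M31, M32 and M40 stood apart from the other libraries. M31 held lens RNA far above the other 6, and the correlation of its log2 levels with theirs across genes was 0.822 to 0.893. M32 correlated with M33 to M36 at 0.923 to 0.949 and M40 with the retinas other than M31 at 0.943 to 0.960, against 0.970 to 0.982 among M33, M34, M35 and M36. Genes are not independent replicates, and these coefficients are a description. From the spacing of the lowest values, 1 sequenced fragment was worth 1.44 times as much FPKM in M40 as in M34, and 0.883 to 0.999 times as much in the other 5. By this measure M40 was the shallowest library, though depth and the scaling of a library cannot be told apart by it. Of the 13961 genes that averaged at least 1 FPKM outside the class of short RNAs, 29.5% were lowest in M31, 21.7% in M32, 11.3% in M33 and 10.5% in M35, and 30.1% were highest in M31, 31.8% in M40, 11.3% in M33 and 6.32% in M32. M32 was the second highest retina for 25.6% of these genes and M35 for 16.3%. Counts of list members at an extreme in a retina are set against these shares. Counts of genes by their spread are also given without M31 where that changed them.

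The promoters of 2 abundant rod genes and of 2 lens genes are printed here because the rod genes carry the level of the tissue and the lens genes its largest differences between retinas. Crx, a homeodomain factor of photoreceptors, is known to bind sites with the core TAATCC, and the Maf family, which includes Nrl in rods and c-Maf in the lens, half-sites with TGCTGA. Each window runs from 250 bases before to 50 bases after the RefSeq start of the gene (build GRCm38.p6), 5′ to 3′ along the gene, with matches to TAATCC or TGCTGA on either strand in capitals. Sag lies on the plus strand at chr1:87803430-87803729, Pdc on the plus strand at chr1:150319167-150319466, Cryaa on the plus strand at chr17:31677681-31677980 and Crygd on the minus strand at chr1:65063391-65063690.
Sag: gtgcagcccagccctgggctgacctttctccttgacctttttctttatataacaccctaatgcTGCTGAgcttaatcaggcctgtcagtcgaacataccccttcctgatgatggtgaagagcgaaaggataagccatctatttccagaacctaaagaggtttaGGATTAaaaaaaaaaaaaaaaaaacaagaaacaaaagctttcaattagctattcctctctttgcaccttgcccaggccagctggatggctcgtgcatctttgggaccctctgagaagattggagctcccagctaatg
Pdc: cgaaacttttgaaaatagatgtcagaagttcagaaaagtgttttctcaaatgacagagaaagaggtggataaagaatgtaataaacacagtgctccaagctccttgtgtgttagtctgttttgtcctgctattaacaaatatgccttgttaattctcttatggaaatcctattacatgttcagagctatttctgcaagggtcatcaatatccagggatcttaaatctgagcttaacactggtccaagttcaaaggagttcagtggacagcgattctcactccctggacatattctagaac
Cryaa: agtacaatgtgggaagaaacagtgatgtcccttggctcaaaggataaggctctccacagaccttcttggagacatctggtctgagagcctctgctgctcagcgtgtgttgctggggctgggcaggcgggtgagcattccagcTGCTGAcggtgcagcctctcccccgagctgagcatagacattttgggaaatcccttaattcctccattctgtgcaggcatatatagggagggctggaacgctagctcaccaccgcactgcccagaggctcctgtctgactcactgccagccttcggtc
Crygd: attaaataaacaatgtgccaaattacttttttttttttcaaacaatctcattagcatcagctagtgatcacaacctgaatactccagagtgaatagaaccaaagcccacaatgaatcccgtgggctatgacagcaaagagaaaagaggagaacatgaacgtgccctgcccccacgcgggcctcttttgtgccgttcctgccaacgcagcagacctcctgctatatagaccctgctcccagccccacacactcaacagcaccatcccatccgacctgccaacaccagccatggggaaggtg
The Sag window held 1 match to each motif, Cryaa held 1 match to TGCTGA, and the Pdc and Crygd windows held neither set of letters. No matches overlapped. Of the 35 rod genes, 26 had a window in the table, and 10 of the 26 windows (38.5%) held TAATCC, compared with 7.06% of all 32851 windows. The letters TGCTGA stood in 7 of the 26 rod windows (26.9%) and in 19.5% of all windows. Among the lens genes, 24 of 26 had 25 windows, of which 14 (56%) held TGCTGA and 2 (8%) held TAATCC. Letters in a window are no evidence of binding.

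The table named 26606 entries. Of these, 5413 were listed at 0 in all 7 retinas, 17012 were above 0 in all 7, and 12650 reached 1 FPKM in all 7, 11681 of which are protein-coding genes by RefSeq. Only 416 entries reached 100 FPKM in all 7. Most of the summed FPKM came from short structured RNAs, the small nuclear, small nucleolar, Y and micro RNAs and their relatives, whose 807 entries took 55.7% (M34), 69.4% (median) and 73.7% (M36) of a library's total. FPKM inflates RNAs that are shorter than a sequenced fragment, so these shares do not count molecules. The highest of them were Rny3 with a median of 341071 FPKM, Rn7sk with 255584, Mir5105 with 90041, Rny1 with 85857 and Snord104 with 47895. Outside this class, which was set by gene name, the noncoding RNA Bc1 stood highest with a median of 92343 FPKM, rank 3 of all entries. Its length was not checked, so the caution on short RNAs may hold for Bc1 as well. Rn7sk, the 7SK RNA that restrains transcription elongation in every cell, was listed at 0 in M32 and M34 and at 198392 to 372469 FPKM in the other 5 retinas. The totals of M32 and M34, and so the lowest share of short RNAs (55.7%), hold no Rn7sk. In all, 24 entries with a median of 10 FPKM or more were listed at 0 in at least 1 retina, 23 of them in the class of short RNAs and the other, Gm12238, a small nucleolar RNA outside it. A listed 0 of a short RNA is therefore given here as listed and not as absence.

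Rod genes headed the protein-coding RNA. Gnat1 ranked first with a median of 10602 FPKM. Gapdh, an enzyme of glycolysis, was at 2645 FPKM. Rod genes filled 12 of the 30 highest protein-coding places and 59.9% of the FPKM summed over those 30. They filled 19 of the highest 100, and 33 of the 35 lay within the highest 1000. Below Gnat1 stood Pdc (phosducin, which binds the transducin βγ subunits) at 2474 FPKM, Pde6g (the inhibitory subunit of the rod phosphodiesterase) at 2007 FPKM, Reep6 (a membrane-trafficking protein of rods) at 1961 FPKM and Sag at 1657 FPKM.

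**Figure D1:**
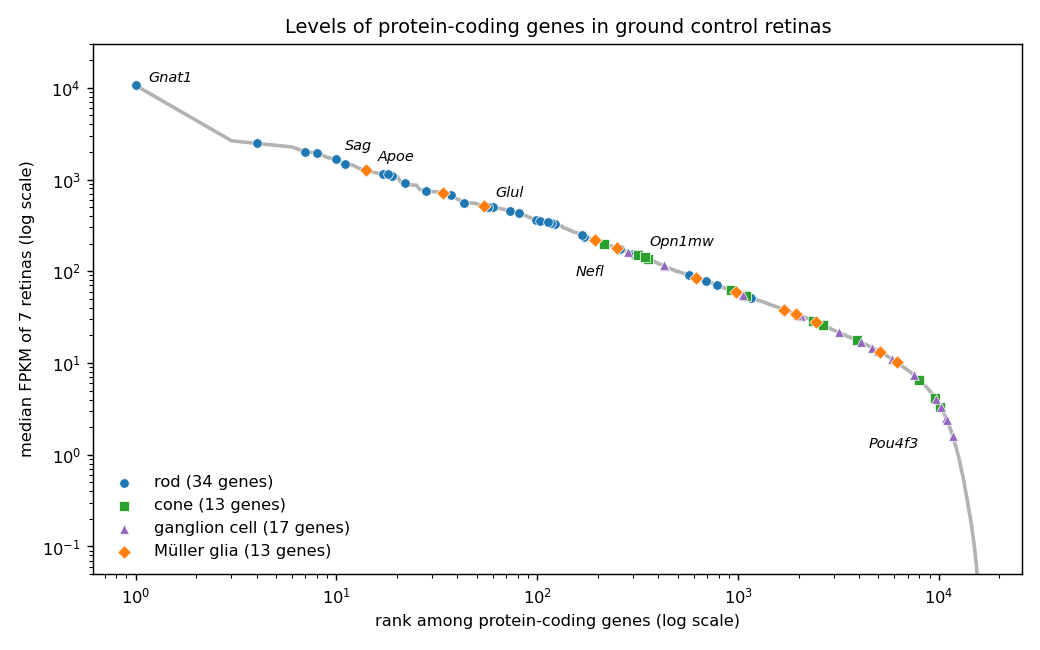
Median FPKM of 7 retinas (y axis, log scale) against the rank of each protein-coding gene (x axis, log scale), with the grey line for the genes plotted and symbols for genes of the rod, cone, ganglion cell and Müller glia lists. Gnat1 stands at rank 1 (10602 FPKM), and the cone and ganglion cell genes begin near 196 and 163 FPKM.

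The steps of the rod cascade did not stand at one level. The transducin subunits were at a median of 10602 FPKM for Gnat1, 1486 FPKM for Gnb1 (β) and 907 FPKM for Gngt1 (γ). The phosphodiesterase subunits were at 685 FPKM for Pde6a, 458 FPKM for Pde6b and 2007 FPKM for the inhibitory Pde6g. The channel subunits Cnga1 and Cngb1 were at 363 and 429 FPKM, and the exchanger that carries calcium back out, Slc24a1, at 499 FPKM. Deactivation was spread widely, from Sag at 1657 FPKM and the calcium sensor Rcvrn (recoverin) at 1091 FPKM to the GTPase accelerator Rgs9 at 352 FPKM and the receptor kinase Grk1 at 176 FPKM. Guanylate cyclase, which restores cyclic GMP, stood low at 85.0 FPKM for Gucy2e and 56.3 FPKM for Gucy2f, while its activators Guca1a and Guca1b were at 756 and 336 FPKM. The disc rim proteins Prph2 and Rom1 stood close together at 1158 and 1147 FPKM. Of the transcription factors that specify rods, Nrl was at 503 FPKM and its target Nr2e3 at 239 FPKM.

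Summed over the 35 genes, rod RNA was 30567 FPKM in M31, 36345 in M32, 43113 in M33, 38880 in M34, 47237 in M35, 41571 in M36 and 44419 in M40. Its median share was 2.34% of all FPKM and 11.4% of protein-coding FPKM. The protein-coding share was 6.60% in M31 and lay between 10.8% (M32) and 12.8% (M35) in the other 6. With the lens genes taken out of the denominator, the share in M31 was 7.58%, and that in the other retinas 10.8% to 12.8%. M31 was the lowest retina for 29 of the 35 rod genes, and for 29.5% of all genes. In bulk tissue, fewer cells of a type and less RNA per cell cannot be told apart.

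Other cell types supplied far less RNA per gene. Cone genes took a median of 0.256% of protein-coding FPKM (0.117% in M31 to 0.289% in M35), with 5 of 13 genes among the highest 1000. The cone phosphodiesterase inhibitor Pde6h was at 105, 196 and 268 FPKM (lowest, median and highest), the middle-wavelength opsin Opn1mw at 86.1, 149 and 194 FPKM and the short-wavelength opsin Opn1sw at 83.0, 137 and 250 FPKM. The cone transducin Gnat2, at a median of 53.9 FPKM, stood far under its rod counterpart Gnat1. Opn1sw was highest in M32, the retina in which Opn1mw (88.2 FPKM) was second lowest. Summed cone RNA was 540 FPKM in M31 and 858 to 1071 FPKM in the other 6.

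Genes of the photoreceptor ribbon synapse, where rods and cones pass their signal on, summed to 1378 FPKM in M31 and 1987 to 2817 FPKM in the others. All 11 were lowest in M31, as were 29.5% of all genes. Unc119, which carries lipid-modified proteins such as transducin, was the highest of them at a median of 739 FPKM, followed by the vesicular glutamate transporter Slc17a7 at 407 FPKM. The ribbon gene Ctbp2 had one of the narrower ranges of the list, 64.7 FPKM in M31 and 75 to 85 FPKM in the other 6.

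Bipolar genes took 0.409% of protein-coding FPKM in the median retina. Pcp2, a marker of rod bipolar cells, was at 349 FPKM in M31 and 593 to 831 FPKM elsewhere, and Gng13, a G protein γ subunit of ON bipolar cells, at 207 FPKM in M31 and 782 FPKM in M40. The glutamate receptor of ON bipolar cells, Grm6, was at 10.7 FPKM in M31 and 24.6 to 32.6 FPKM in the other 6. M31 was the lowest retina for 15 of 16 bipolar genes, and for 29.5% of all genes. Trpm1, the channel that Grm6 controls, was the exception at 148 FPKM in M31 and 80.0 to 150 FPKM in the others; Trpm1 is also known as a gene of pigment cells.

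Amacrine genes took 0.173% and horizontal cell genes 0.0326% of protein-coding FPKM in the median retina. Pax6, a transcription factor of amacrine and ganglion cells, was nearly level at 103, 106 and 129 FPKM. The rate-limiting enzyme of dopamine synthesis, Th, which only a sparse class of amacrine cells makes, was at 0.427 FPKM in M31 and 1.22 to 1.65 FPKM in the other 6. The peptide Sst had the widest spread of the list without M31, from 1.95 FPKM (M33) to 7.69 FPKM (M32), with an SD of 0.77 on the log2 scale. Among horizontal cell genes, Onecut1 was at 2.73 FPKM in M31 and 6.09 to 14.5 FPKM elsewhere, and Prox1 at 71.6 FPKM in M31 and 79.1 to 95.6 FPKM elsewhere.

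Ganglion cell genes ordered the retinas in another way. Their sum was 382 FPKM in M35, 419 in M31, 591 in M32, 603 in M34, 642 in M36, 654 in M33 and 877 in M40. M35, the retina with the highest rod sum, thus had the lowest ganglion cell sum. As a share of protein-coding FPKM, ganglion cell RNA was instead lowest in M31, at 0.0906%. Of the 17 genes, 8 were lowest in M35 and the other 9 in M31, against 10.5% and 29.5% of all genes. Per 100 FPKM of rod RNA the ganglion cell sum was 0.809 in M35, 1.37 in M31, 1.52 to 1.63 in M32, M33, M34 and M36, and 1.97 in M40. The high rod sum of M35 lowers its ratio. Rbpms, an RNA-binding protein used as a pan-ganglion-cell marker, was at 11.5 FPKM in M35 and 17.6 to 26.2 FPKM in the other 6. Sncg, γ-synuclein, was at 56.6 FPKM in M35 and 94.9 to 196 FPKM in the other 6. The neurofilament gene Nefm was at 26.3 FPKM in M35, 33 FPKM in M31 and 45.2 to 71.4 FPKM elsewhere. M35 thus stood below all 6 others for Rbpms, Sncg and Nefm, and was the second lowest for Nefl (117 FPKM against 100 in M31) and Thy1 (72.1 FPKM against 70.0 in M31). Opn4, the melanopsin of light-sensing ganglion cells, was lowest in M35 as well at 1.93 FPKM and highest in M31 at 6.78 FPKM. How much of the inner retina each dissection kept was not tested.

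**Figure D2:**
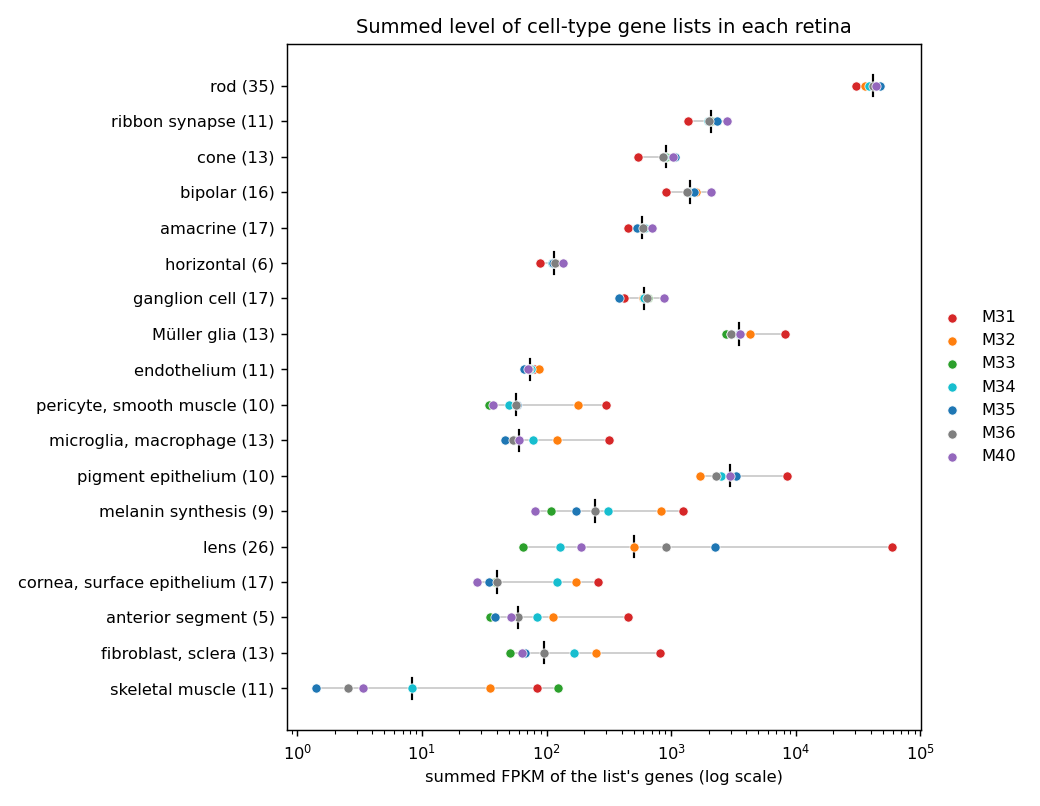
Summed FPKM of the genes of each list (x axis, log scale) in each retina, 1 point per retina, with the number of genes in brackets and a black bar at the median of 7. Rod sums lie between 30567 and 47237 FPKM, while lens sums run from 65.0 FPKM in M33 to 59587 FPKM in M31.

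Müller glia genes summed to 2765 FPKM in M33, 3499 FPKM in the median retina M34 and 8268 FPKM in M31. The list was split in M31. Apoe, the lipid carrier, was at 3830 FPKM there and 792 to 2088 FPKM elsewhere, Clu (clusterin) at 2209 against 574 to 789 FPKM, the intermediate filament gene Vim at 489 against 69.8 to 95.9 FPKM, and the retinaldehyde carrier Rlbp1 at 416 against 198 to 227 FPKM. The glutamine synthetase gene Glul, at 505 FPKM in M31, lay inside the range of the other 6 (469 to 662 FPKM). The glutamate transporter Slc1a3 was at 51.8 FPKM in M31, below the 56.1 to 70.1 FPKM of the others, and the potassium channel Kcnj10 at 7.98 FPKM, below their 11.7 to 15.7 FPKM. Vim and Clu are also known in lens and other ocular epithelia, and Rlbp1 in the pigment epithelium. Gfap, whose rise marks reactive glia, was low in all 7 retinas, at 1.87, 2.62 and 3.68 FPKM. The reactive gliosis list of 12 genes, Gfap among them, did vary. Its sum was 158 FPKM in M31, 122 in M32 and 50.9 to 85.6 FPKM elsewhere.

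The spread between retinas was measured as the SD of log2(FPKM + 0.1) over the 7 libraries, for the 13961 genes with a mean of at least 1 FPKM outside the class of short RNAs. The median SD was 0.30, so that 1 SD of the typical gene was a factor of 1.23, and the 90th percentile was 0.66. An SD over 1 was found for 528 genes (3.78%), and an SD under 0.1 for 395 genes (2.83%). Without M31, the median SD was 0.25 over 13814 genes, with 241 genes (1.74%) over 1 and 928 under 0.1. The spread differed with level. The median SD was 0.44 for the 2563 genes at a mean of 1 to 3 FPKM, 0.25 for those at 30 to 100 FPKM and 0.37 for the 34 genes at 1000 FPKM or more. A gene with an SD above the 90th percentile is said below to be in the top decile, a place that 10% of the 13961 genes hold by definition. Genes that passed the minimum level only through a single high retina had to vary, so counts in the top decile are descriptions.

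Rod genes had a spread slightly under that of the typical gene, and cone and ribbon synapse genes a spread above it. None of the 35 rod, 13 cone, 11 ribbon synapse, 16 bipolar or 17 ganglion cell genes was in the top decile, against 10% of all genes. The median SD was 0.39 for the cone genes and 0.37 for the ribbon synapse genes, against 0.30 for all genes, and without M31 it was 0.26 and 0.19, against 0.25. The rod genes had a median SD of 0.28 over 7 retinas and 0.20 without M31, and the sum of the list differed 1.55-fold between the highest and the lowest retina, 1.30-fold without M31. Within the list, Abca4, the flippase of the rod disc, was the most even (184 to 225 FPKM, SD 0.12) and the outer segment genes Rp1 (197 to 417 FPKM, SD 0.45) and Gucy2f (34.9 to 74.2 FPKM, SD 0.45) the least. With M31 left out, 5 of the 17 ganglion cell genes entered the top decile, among them Sncg with an SD of 0.57 and Nrn1, an outgrowth factor, with 0.58.

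**Figure D3:**
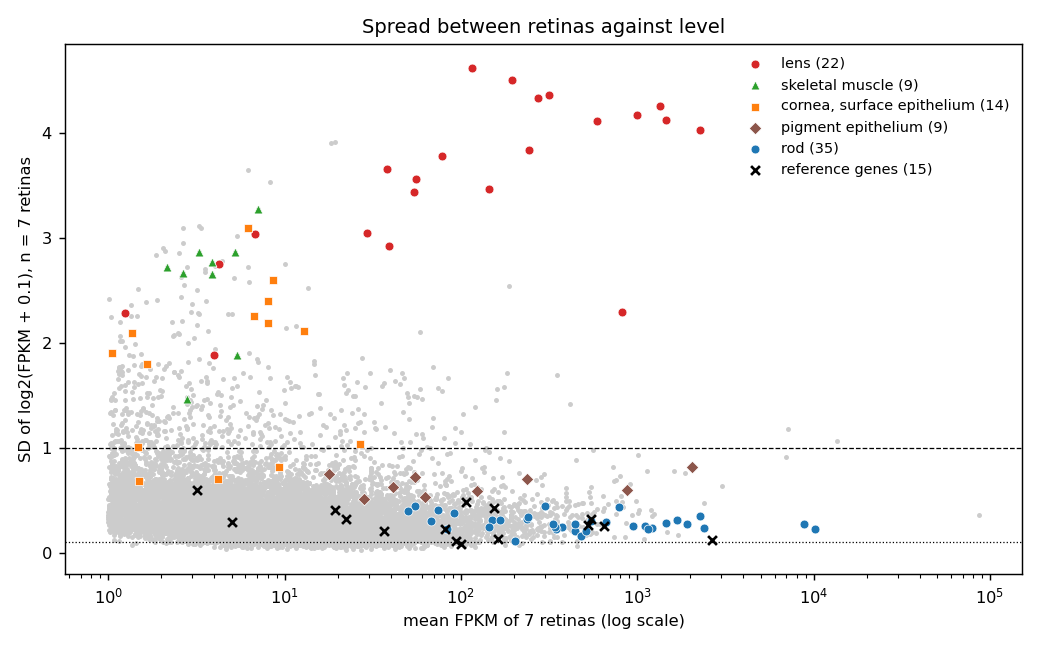
SD of log2(FPKM + 0.1) over 7 retinas (y axis) against mean FPKM (x axis, log scale) for 13961 genes in grey and 6 lists in colour, with a dashed line at an SD of 1 and a dotted line at 0.1. Lens and skeletal muscle genes lie above the dashed line, and rod and reference genes lie below it.

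The 30 genes with the highest SD were led by the crystallins, the structural proteins of the lens. All 22 lens genes at 1 FPKM or more were in the top decile, and all 26 on the list were highest in M31, against 30.1% of all genes. The summed lens RNA was 59587 FPKM in M31, 2252 in M35, 913 in M36, 505 in M32, 188 in M40, 129 in M34 and 65.0 in M33. That is a 917-fold range, and a 34.7-fold range without M31. Lens genes took 12.9% of protein-coding FPKM in M31, more than the rod genes (6.60%), and 0.0181% in M33. Without M31, all 19 lens genes that still had a mean of 1 FPKM were in the top decile. Cryaa, αA-crystallin, was at 15011 FPKM in M31, 532 in M35, 226 in M36, 117 in M32, 40.2 in M40, 25.2 in M34 and 1.82 in M33. Crygd, a γ-crystallin and the gene with the highest SD (4.61), was at 757 FPKM in M31, 36.4 in M35, 8.57 in M36, 8.55 in M32 and 1.66 in M40, and was listed at 0 in M33 and M34. M35 was the second highest retina for 20 of the 26 lens genes, and M33 the lowest for 21, against 16.3% and 11.3% of all genes. Reads may be shared between the γ-crystallins, which are close copies, so that the split among Crygb, Crygc, Crygd, Cryge and Crygf is uncertain.

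Not all crystallins followed the same slope. Cryab, αB-crystallin, a chaperone that retinal glia and neurons also make, was at 5119 FPKM in M31 and 56.1 to 232 FPKM in the other 6. Its SD without M31 was 0.75, compared with 2.86 for Cryaa. The lens water channel Mip was at 516 FPKM in M31 and 0.22 to 16.1 FPKM elsewhere. The beaded filament genes Bfsp1 and Bfsp2 were at 360 and 251 FPKM in M31 and at most 15.0 and 10.5 FPKM in the other 6, both highest there in M35.

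The pigment epithelium and the pigment genes parted. The pigment epithelium list, mostly genes of retinoid handling, was highest in M31 for all 10 members, as were 30.1% of all genes. The sums of this list were 8593 FPKM in M31, 3308 in M35, 3016 in M33, 2985 in M40, 2507 in M34, 2291 in M36 and 1705 in M32. Ttr, which carries retinol, was at 5431 FPKM in M31 and 884 to 1944 FPKM elsewhere, and the retinoid isomerase Rpe65 at 572 FPKM in M31 and 119 to 236 FPKM elsewhere. M32 was the lowest retina for 7 of the 10, and for 21.7% of all genes. The melanin genes Dct, Tyrp1, Pmel, Mlana and 4 others, with Mitf that drives them, were highest in M31 and second highest in M32 for all 9. Of all genes, 30.1% were highest in M31 and 25.6% second highest in M32. The sums of the melanin genes were 1242 FPKM in M31, 826 in M32, 311 in M34, 243 in M36, 174 in M35, 108 in M33 and 81.1 in M40. Dct was at 441 FPKM in M31, 317 in M32 and 30.7 to 121 in the other 5. M32 therefore combined the least pigment epithelium RNA with the second highest melanin gene RNA. Melanocytes of the choroid, ciliary body and iris share the melanin genes with the pigment epithelium. All 9 melanin genes were in the top decile (5 of 8 without M31), as were 4 of 9 pigment epithelium genes (0 of 9 without M31).

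Surface and connective tissue genes formed further patterns. The 14 corneal and surface epithelium genes at 1 FPKM or more were all in the top decile, 11 of 13 without M31. Their sum was 259 FPKM in M31, 174 in M32, 122 in M34 and 27.8 to 39.9 in the other 4, and 10 of the 17 genes were highest in M32, against 6.32% of all genes. Krt12, the keratin of the corneal epithelium, was highest in M34 at 39.5 FPKM, with 13.0 in M31, 2.65 in M32 and 0.0841 in M35. Krt15, a keratin of basal epithelial cells, was highest in M32 at 42.7 FPKM, with 8.59 in M31 and at most 1.87 in the others. Corneal Krt12 and basal Krt15 thus marked different retinas. Of 12 fibroblast and sclera genes, 11 were in the top decile (9 of 10 without M31), and those with an SD over 1 numbered 9 with M31 and 4 without it. The list summed to 821 FPKM in M31, 251 in M32, 167 in M34 and 50.7 to 95.3 in the other 4. Optc, opticin, a protein that the ciliary epithelium secretes into the vitreous, was at 384 FPKM in M31, 69.6 in M32, 48.1 in M34 and 13.3 to 31.9 in the rest.

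Skeletal muscle genes had an order of their own. Their sum was 124 FPKM in M33, 83.5 in M31, 35.3 in M32, 8.29 in M34, 3.35 in M40, 2.53 in M36 and 1.41 in M35, an 87.6-fold range. All 9 genes at 1 FPKM or more were in the top decile, with and without M31. Of the 11, 8 were highest in M33, the retina with the least lens RNA, against 11.3% of all genes. The fast troponin gene Tnnt3 was at 23.0 FPKM in M33, 16.4 in M31, 7.81 in M32, 1.76 in M34, 0.254 in M40 and 0.0472 in M36, and was listed at 0 in M35. The extraocular muscle myosin Myh13 stayed under 0.1 FPKM in all 7.

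Genes of glandular secretions stood out in M32. Abph, an androgen-binding protein of saliva and tears, was at 26.6 FPKM in M32, 16.3 in M31 and 0.537 in M33, and was listed at 0 in the other 4. Spt1, a salivary protein, was at 33.5 FPKM in M32, 22.9 in M31 and 1.03 in M33, and at most 0.202 in the other 4. Bpifa6, of a family of secreted lipid-binding proteins, was at 64.0 FPKM in M32 and at most 2.80 in the other 6. The desaturase Scd3 and the wax synthase Awat2, lipid genes of sebaceous-type glands, were at 55.7 and 10.5 FPKM in M32 and at most 4.35 and 0.825 FPKM elsewhere. These gland genes were grouped after their values were seen. Counting genes of at least 10 FPKM in a retina and at least 5 times the second highest retina, a rule set after the values were seen, gave 86 genes in M31, 9 in M32 and 0 in each of the other 5. Besides crystallins, the M31 genes included Dapl1 (2001 FPKM, second highest 196), Lenep (1191 FPKM, second highest 51.6), a lens epithelial gene, and the basement membrane gene Nid1 (61.5 FPKM, second highest 2.88).

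**Figure D4:**
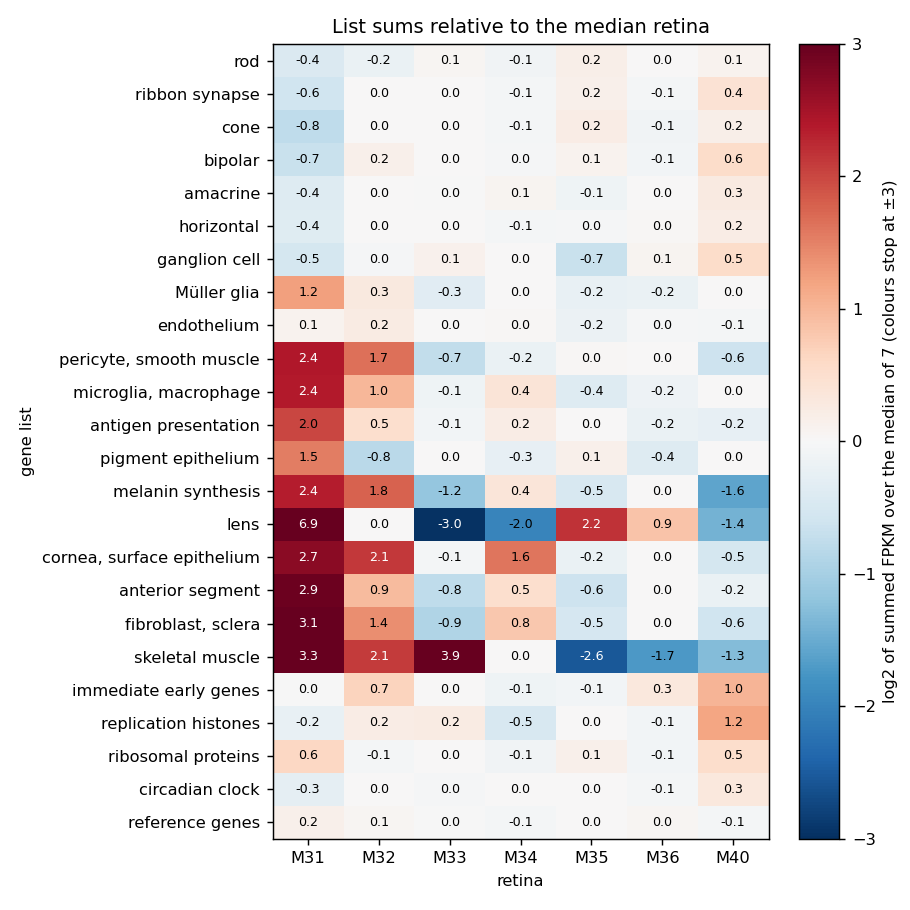
Base-2 logarithm of each list's summed FPKM over its median in the 7 retinas (colour and printed values), with lists in rows and retinas in columns. M31 is high for lens (59587 FPKM) and fibroblast genes (821 FPKM), M33 for skeletal muscle (124 FPKM), and M40 for replication histones (6813 FPKM), while reference genes stay between 4844 and 5662 FPKM.

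Immune and vascular genes varied with M31 and M32. The microglia and macrophage sum was 315 FPKM in M31, 121 in M32, 78.3 in M34, 60.1 in M40, 55.1 in M33, 53.7 in M36 and 46.0 in M35, and 10 of 12 genes were in the top decile (5 of 11 without M31). All but P2ry12 of the 13 genes listed were highest in M31, as were 30.1% of all genes. P2ry12, a receptor of resting microglia, stayed at 1.16 to 1.58 FPKM in all 7 retinas. Cx3cr1, another microglial receptor, did not, at 3.62 FPKM in M31 and 0.650 to 1.38 FPKM elsewhere (SD 0.73). Lyz2, the lysozyme of macrophages, ran from 3.95 FPKM in M40 to 36.8 in M32 and 120 in M31, and Cd74, the chaperone of MHC class II, from 1.78 FPKM in M40 to 18.1 in M32 and 63.9 in M31. Endothelial genes summed to 65.4 FPKM in M35 and 87.3 FPKM in M32, a range narrower than that of most members. Their median SD was 0.50, and 3 of 11 were in the top decile (2 of 10 without M31). The receptors Kdr (19.9 to 30.1 FPKM) and Flt1 (19.0 to 23.4 FPKM) made up much of the sum. Cdh5, the cadherin of endothelial junctions, was at 5.63 FPKM in M31, 6.64 in M32 and 1.63 to 2.84 elsewhere, and the secreted factor Egfl7 at 6.48 FPKM in M31, 4.60 in M32 and 1.1 to 2.96 elsewhere. Smooth muscle genes differed more, with Myh11 at 40 FPKM in M31, 38.4 in M32 and 1.52 to 7.90 elsewhere. Blood and myelin genes were low in all 7, the globin Hbb-b1 at 3.40 to 18.7 FPKM and the myelin gene Mog at 0.0821 FPKM or less.

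**Figure D5:**
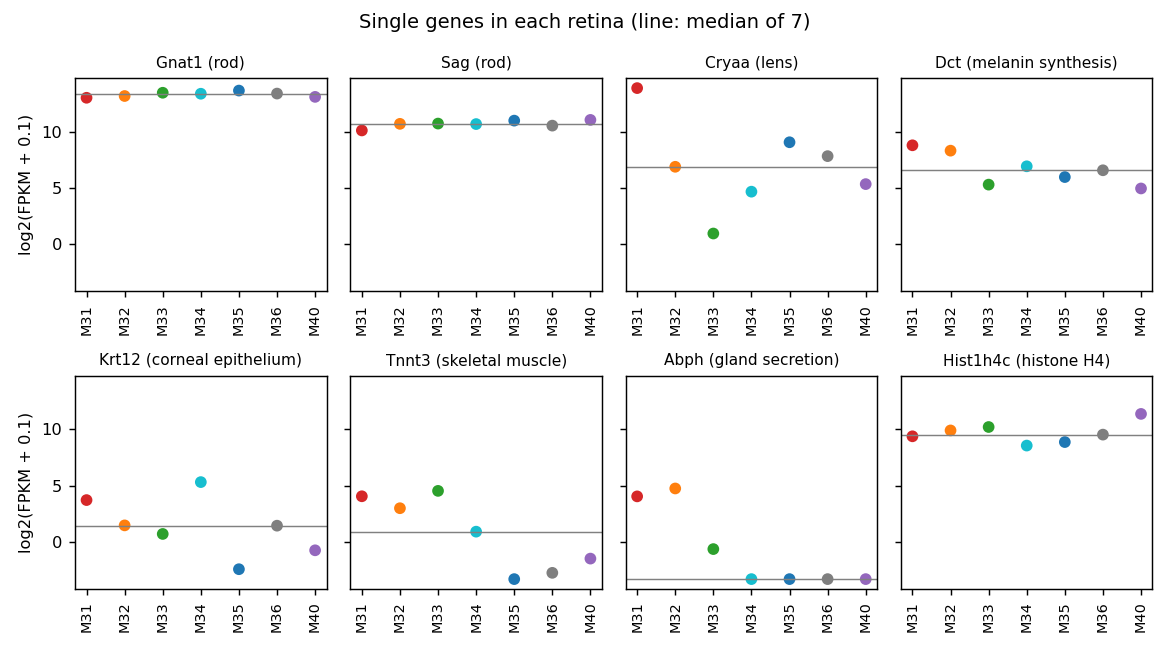
Log2(FPKM + 0.1) (y axis) of 8 genes in each retina (x axis), 1 point per retina, with a line at the median of 7. Gnat1 (8269 to 12885 FPKM) and Sag (1103 to 2113 FPKM) have narrow ranges, while Cryaa peaks in M31, Krt12 in M34, Tnnt3 in M33, Abph in M32 and Hist1h4c in M40.

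M40 was the highest retina for several classes of RNA. The mitochondrial ribosomal RNAs Rnr1 and Rnr2 were at 22077 and 44540 FPKM there, against 3276 to 5327 and 4380 to 13082 FPKM in the other 6. Replication histone genes summed to 6813 FPKM in M40 and 2148 to 3561 FPKM elsewhere, and 33 of the 58 that were above 0 were highest in M40, as were 31.8% of all genes. Hist1h4c, a histone H4 gene, was at 2652 FPKM in M40 and 376 to 1183 FPKM elsewhere. The H4 genes encode the same protein and may share reads. Immediate early genes, which neurons and glia switch on within minutes of a stimulus, summed to 306 FPKM in M40, 241 in M32, 190 in M36 and 139 to 152 in the other 4, and 13 of 17 were highest in M40, against 31.8% of all genes. Egr1 was at 109 FPKM in M40, 86.1 in M32, 76.4 in M36 and 29.4 to 55 in the rest, and Fos at 22.4 FPKM in M40, 15.8 in M32 and 7.62 to 13.0 in the rest. Circadian clock genes had a median SD of 0.28, near the 0.30 of all genes. Of the 16, 0 were in the top decile and 9 were highest in M40, against 10% and 31.8% of all genes. Dbp, a clock output gene, was at 60.3 FPKM in M40 and 25.8 to 36.4 FPKM elsewhere, and Nr1d1, which represses the clock gene Arntl, at 156 to 283 FPKM. The clock genes Clock (24.2 to 31.1 FPKM) and Arntl (24.8 to 34.6 FPKM) had narrower ranges. The part of library depth in the values of M40 was not tested, nor was that of its uncertain number.

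By median SD, reference genes were steadier than the typical gene, and ribosomal and respiratory genes were not. The 15 reference genes summed to 4844 to 5662 FPKM, a 1.17-fold range, and had a median SD of 0.26, with none in the top decile. Ywhaz, a 14-3-3 adaptor protein, was the most even of them at 94.1 to 112 FPKM with an SD of 0.08, and Gapdh was at 2358 to 2897 FPKM with an SD of 0.12. The common reference gene Actb was less even, at 435 to 793 FPKM with an SD of 0.32, and Gusb had the highest SD at 0.60. Ribosomal protein genes took 5.43% and oxidative phosphorylation genes 3.41% of protein-coding FPKM in the median retina. In the top decile were 2 of 92 and 6 of 85 genes, and 11 of 92 and 9 of 85 without M31, against 10% of all genes. The median SD of these 2 lists was 0.36 and 0.31, against 0.30 for all genes. Heat shock genes had a median SD of 0.29 (0.28 without M31), about that of all genes, and 8 of 11 were highest in M31, as were 30.1% of all genes. The widest range among the heat shock genes was that of Hspb1, a small heat shock protein also found in lens, at 216 FPKM in M31 and 6.95 to 16.1 FPKM elsewhere. Of the glucocorticoid response genes, Fkbp5, a standard target of the receptor, was even at 4.66 to 6.22 FPKM, and the metallothionein Mt1 was not, at 413 to 1609 FPKM with its highest value in M31.

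The most even genes of all 13961 were of middling level. Tmem127, a membrane protein that limits mTOR signalling, had the lowest SD, 0.027, at 22.1, 21.9, 22.2, 22.2, 21.9, 21.8 and 23.1 FPKM in M31, M32, M33, M34, M35, M36 and M40. Ube2q1, a ubiquitin-conjugating enzyme, was next at 26.3 to 28 FPKM (SD 0.031), then Zc3h12b at 4.55 to 4.86 FPKM (SD 0.032) and the helicase gene Helz at 29.6 to 32 FPKM (SD 0.036). Among the 20 lowest were regulators of transcription and RNA processing, such as the spliceosomal helicase Snrnp200 (41.1 to 44.4 FPKM), the coactivator Crebbp (57.6 to 64.2 FPKM) and Thrap3 (56.9 to 62.1 FPKM), and the RNA-binding protein Atxn2 (48.9 to 53.2 FPKM). Which genes fill these places depended on the libraries used, since 8 of the 20 stayed among the lowest without M31 and 6 without M40.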

How the data were processed

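Retinal RNA libraries of the ground control mice were analysed here as 1 group, with no test, since the labels give no contrast inside it. Per the labels and the study's methods, the FPKM values deposited by the authors were estimated with the Cufflinks programs after read trimming (Trimmomatic) and alignment (TopHat2, build GRCm38). The study lists reads per library, but under numbers that could not be tied to the columns with certainty, and the table holds no counts. Depth is therefore given here only as the relative value of 1 fragment. This ratio was shared by 10.9% to 15.3% of the low entries compared, and M40 is the shallowest library by that measure only. The 24 entries without a gene name took 5.65% to 9.66% of a library's FPKM and were left out. The mouse numbers of the columns were taken as they stand: the sample titles and the study's own list of libraries give different numbers for several of them, M40 is no title of an RNA sample, and the effect of this was not tested. The table holds 11 other columns of per-sample values, which were not used. They outnumber the flight RNA samples of the series, and whether some of them are ground controls was not established.

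The members, the gene lists and the rules were chosen with earlier results of these data known. Ranks used the median FPKM of 7 retinas, and shares the summed FPKM of each of 33 lists. Spread was the SD of log2(FPKM + 0.1), a pseudocount that understates differences of low genes, for genes averaging at least 1 FPKM outside the short structured RNAs. The genes named are the 30 with the highest median, the 5 highest short RNAs, the 30 with the highest and the 20 with the lowest SD, the 10 with the highest SD relative to the 200 genes nearest in level, and members of the lists. Gene classes came from RefSeq, in which 22025 entries matched by symbol, 2548 by synonym and 2033 not at all. Promoter windows are RefSeq's, build GRCm38.p6. The computation (Python 3.11.15, numpy 2.4.6) was tested on simulated data. Alternatives changed the pseudocount, the minimum level, the measure of spread, the centring, the denominator and the libraries. A rod gene is left out of the named results and of the plot of levels by rank, and is not reported here.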

Additional observations from a re-analysis of the deposited data

Results flagged for a closer look

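Each list sum and named gene was searched for a retina far from the other 6, by the gap to the nearest retina as a share of the range (Dixon's rule for 7 values). Of 118 quantities, 41 went past it, 33 of them in M31, 5 in M40, 2 in M32 and 1 in M34. Chance alone flags about 1 in 20 such groups if values are normally distributed, which was not tested for these FPKM values. The rate is also no comparison for genes chosen by their spread. Of the 41, 24 were among 50 genes chosen by a high or low SD, 7 among 35 genes chosen by level alone and 10 among 33 list sums. The quantities overlap, since list sums hold the named genes.

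In M31, the cone sum was the lowest at 540 FPKM. The other list sums that stood apart in M31 were the highest of the 7: Müller glia at 8268 FPKM, microglia and macrophages at 315, pigment epithelium at 8593, lens at 59587, anterior segment at 454, fibroblasts and sclera at 821, interferon response at 72.6 and antigen presentation at 744 FPKM. Among abundant genes, Ptgds (prostaglandin D synthase) stood at 6987 FPKM in M31, the protease inhibitor Cst3 at 4282, Ttr at 5431 and Apoe at 3830 FPKM.

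The lens genes flagged in M31 were the α-crystallin Cryaa at 15011 FPKM, the β-crystallins Crybb2 at 9500, Cryba1 at 8878, Cryba2 at 3910, Crybb3 at 1601, Cryba4 at 1283 and Crybb1 at 944 FPKM, and the γ-crystallins Crygs at 6654, Crygc at 2095, Crygb at 1798 and Crygd at 757 FPKM. The membrane and cytoskeletal genes of lens fibres were Mip at 516, Bfsp1 at 360, Bfsp2 at 251, Lim2 at 188 and Gja3 at 45.6 FPKM. The galectin-related Grifin stood at 354 and Lgsn (lengsin) at 252 FPKM. Also flagged in M31, but not on the lens list, were Lctl at 34.3 FPKM and LOC100302567, listed at 0 elsewhere, at 128 FPKM.

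In M40, the replication histone sum was 6813 FPKM, Rnr2 was at 44540, Rnr1 at 22077 and Mir5105 at 352258 FPKM. Tmem127, the gene with the lowest SD, was also flagged in M40 at 23.1 FPKM, against 21.8 to 22.2 FPKM in the other 6. In M32, the gland genes Abpe and Abpz stood at 18.3 and 11.8 FPKM. In M34, the pseudogene Gm6272 stood at 11.9 FPKM.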

How the results depend on the processing

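The count of genes with an SD over 1 depended on the settings: 528 in the report, 277 with a pseudocount of 1, 141 when the minimum mean was 10 FPKM, 1319 with no minimum level and 300 with the median absolute deviation. Leaving out each retina in turn gave 241 to 650, the lowest without M31. The count with an SD under 0.1 was 395 in the report, 1947 with the median absolute deviation, and 381 to 928 with 1 retina left out, 928 without M31 and 710 without M40. The cause was not tested. The median SD, 0.30 in the report, lay between 0.22 (median absolute deviation) and 0.36 (no minimum level) in these settings.

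The median share of rod genes was 2.34% of all FPKM, 8.0% of FPKM without short structured RNAs and 11.4% of protein-coding FPKM. In the same order, the share was 0.0572%, 0.180% and 0.256% for cone genes and 0.180%, 0.650% and 0.892% for Müller glia genes. The last 2 denominators leave out RNAs by construction, and the last was added after seeing the data. The total without short structured RNAs still holds Bc1, at a median of 92343 FPKM. Of the 30 genes with the highest SD, 19 kept a place with a minimum of 10 FPKM and 18 with the median absolute deviation. Of the 20 with the lowest SD, 11 kept a place with centred libraries and 0 with the median absolute deviation. Counts of list members in the top decile without M31, chosen after seeing the data, are given where the report uses them. No paired analysis was possible because only 1 group was described.

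Depth limits low genes, so that those under 1 FPKM were left out of the measure of spread, and intervals are absent because the table gives FPKM and no counts of fragments.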

Other observations

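Long nuclear RNAs differed in their evenness. Malat1, a nuclear speckle RNA, was at 1433 FPKM in M33 and 2106 FPKM in M40, with an SD of 0.17. Meg3, an imprinted RNA, was at 17.7 FPKM in M31, 35.3 to 58.3 FPKM in the next 5 retinas and 98.3 FPKM in M40, with an SD of 0.75. The imprinted Mirg was likewise lowest in M31 (0.520 FPKM) and highest in M40 (6.35 FPKM). Neat1, the RNA of paraspeckles, was at 20.5 FPKM in M31, 20.3 FPKM in M32 and 3.02 to 9.02 FPKM in the other 5.

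Of genes used to follow reactive glia, Serpina3n, a secreted protease inhibitor, was at 64.5 FPKM in M32, 50.2 in M31, 27.7 in M34 and 4.86 to 11.4 in the other 4, while Gfap did not exceed 3.68 FPKM. The cytokine Lif was at 0.139 FPKM or less in all 7 retinas. Among interferon response genes, Ifit3 was at 18.0 FPKM in M31 and 4.54 to 8.19 FPKM elsewhere, and Irf7 was near level at 4.23 to 6.46 FPKM.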
